A study of Mus musculus with 9 samples.

Results

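The genes described here build the actomyosin of nonmuscle and smooth muscle cells: the myosin heavy chains Myh9, Myh10 and Myh11, the regulatory myosin light chain Myl9, the actins Actb, Actg1 and Acta2, the actin crosslinker Flna, and the filament-binding proteins Tagln and Cnn1. They were taken by name, and all 10 were found among the 16937 genes of the series. RNA from brown adipose tissue was sequenced in 9 libraries, 3 per group, from adult mice on a C57Bl/6J background that were housed singly for 5 days beforehand. WT RT mice stayed at 23 °C, and WT Cold mice and mice labelled GCN2 KO Cold spent 8 h at 4 °C. GCN2 KO mice are whole-body knockouts (Gcn2−/−) of Eif2ak4, the gene for the kinase GCN2. The study states that the sequenced groups held both male and female mice. No sex is given for any library, so sex is not in any of the fits. The libraries are titled as biological replicates and are called A, B and C here in the order of their codes. The WT RT codes carry another prefix than the codes of both cold groups, so prefix and temperature cannot be told apart, whereas both cold groups share a prefix.

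Total reads on listed genes ran from 27058799 to 30768064 per library, and the 10 genes took 0.144% to 0.237% of them. Eif2ak4 was not depleted in libraries labelled GCN2 KO Cold, so its count does not bear out the label. Its normalised read count there was 356 ± 13.3 (SD, n = 3) beside 209 ± 33.2 in WT Cold (log2 fold change 0.78 (adjusted p = 0.0932)). The deleted part of the gene is not given in the sources used here, so whether this count should fall is not known. Every direction drawn from these libraries rests on the label alone. The 12 brown adipocyte markers, Ucp1 among them, were above 0 in every library, with a summed level of 18681 to 21455 CPM in WT RT, 27012 to 28617 in WT Cold, and 33878 to 34979 for GCN2 KO Cold. Levels below are CPM, read counts scaled by library size, with TMM factors, which set the bulk of genes to the same level in all libraries.

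Actomyosin makes force when bipolar myosin II filaments pull on actin, and in nonmuscle and smooth muscle cells phosphorylation of the regulatory light chain by myosin light chain kinase switches the motor on. Nonmuscle myosins and the cytoplasmic actins are made by nearly every cell, whereas Acta2, Myh11, Tagln and Cnn1 are the textbook markers of differentiated smooth muscle, which in fat lies around blood vessels. Serum response factor, with its partners of the myocardin family, drives many of these genes through a DNA element called the CArG box. In brown adipocytes, actomyosin tension has been linked to thermogenic activation.

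Actb had the highest level per length in all 3 groups, at 269 ± 27.4 CPM per kilobase (mean ± SD, n = 3) in WT RT, 224 ± 18.1 in WT Cold, and 222 ± 23.4 for GCN2 KO Cold. Next in WT RT came Actg1 at 81.1 ± 8.77, Acta2 at 71.1 ± 31.7 and Myl9 at 65.6 ± 30.1 CPM per kilobase, and these 3 did not differ beyond their spread. Cnn1 at 26.0 ± 17.2, Myh11 at 23.4 ± 15.5, Tagln at 20.3 ± 11.8 and Flna at 19.1 ± 5.80 formed a lower tier that also could not be ordered. Myh9, the heavy chain of nonmuscle myosin IIA, stood at 12.2 ± 1.04 CPM per kilobase in WT RT, and Myh10, the heavy chain of IIB, was lowest of the 10 at 3.02 ± 0.429. In WT Cold the means of Acta2 (103 ± 21.1) and Myl9 (95.8 ± 22.6) lay above that of Actg1 (73.8 ± 10.3), and the GCN2 KO Cold means had the same order. The order of the other genes was as in WT RT, and Actb at the top and Myh10 at the bottom stood clear of their neighbours in all 3 groups. Of the sequence of Actg1, 54.5% of 75-base windows occur in other annotated genes, mostly pseudogenes, and 2.60% of those of Actb do. The windows are shorter than the paired reads as sequenced, so these are not shares of reads. By this measure the level of Actg1 is the least certain.

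**Figure D1:**
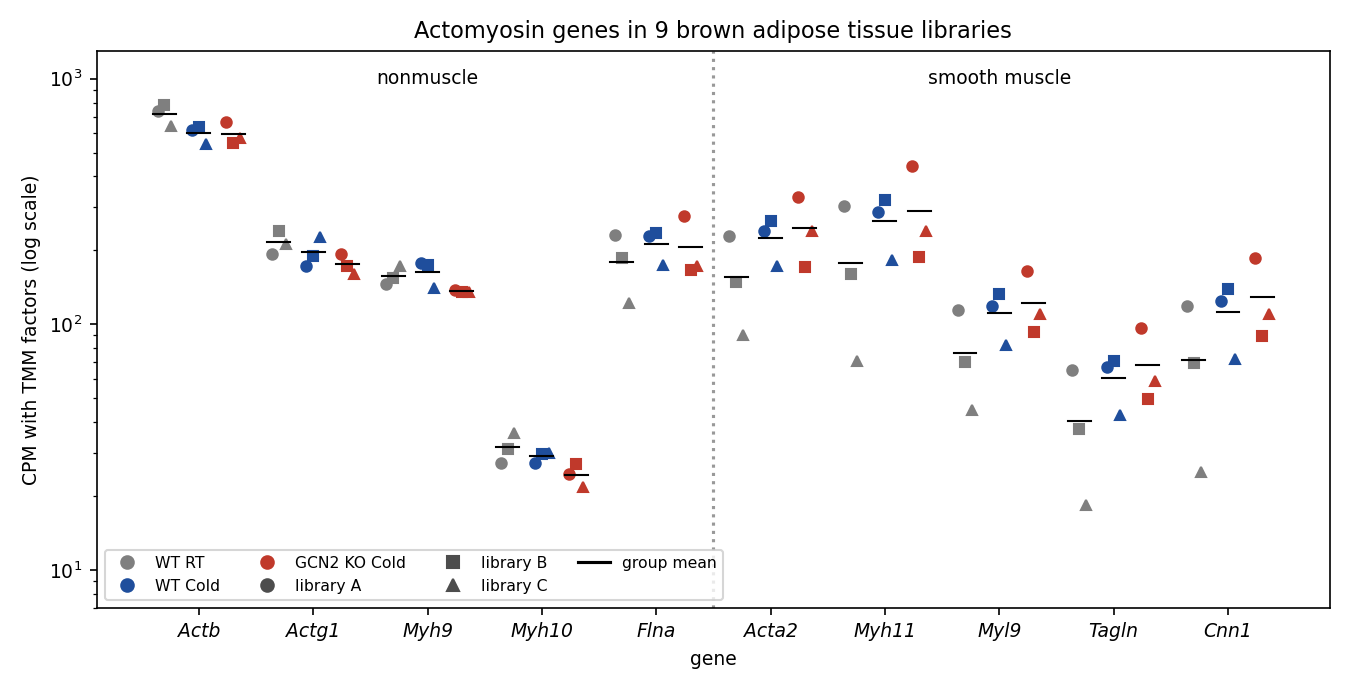
Level of each gene in CPM with TMM factors (log scale) in the 9 libraries; colours give the group, symbols the library within its group, and black lines the mean of 3 libraries. The smooth muscle genes spread widely within every group, Cnn1 from 25.0 to 119 CPM in WT RT, while Myh9 stayed between 135 and 177 CPM over all 9.

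The smooth muscle genes varied together between mice of the same group, in WT RT far more than the nonmuscle genes other than Flna did. Cnn1, the calponin of smooth muscle thin filaments, stood at 119, 69.8 and 25.0 CPM in WT RT libraries A, B and C, 125, 139 and 72.5 in WT Cold, and 186, 89.6 and 109.8 for GCN2 KO Cold. Myh11, the smooth muscle myosin heavy chain, stood at 303, 159.8 and 70.6 CPM in WT RT libraries A, B and C, 285, 322 and 182 in WT Cold, and 442, 187 and 240.5 for GCN2 KO Cold. Both were highest in library A of WT RT and of GCN2 KO Cold and in library B of WT Cold. Tagln, transgelin, an actin-bundling protein of smooth muscle, stood at 65.0, 37.5 and 18.4 CPM in WT RT libraries A, B and C, 67.2, 71.0 and 42.7 in WT Cold, and 96.8, 49.6 and 58.9 for GCN2 KO Cold. Acta2, the smooth muscle actin, stood at 229, 149 and 90.7 CPM in WT RT libraries A, B and C, 240.0, 262 and 173 in WT Cold, and 330.0, 171 and 239.6 for GCN2 KO Cold. Myl9, the light chain through which smooth muscle myosin is switched on, stood at 114, 70.2 and 44.7 CPM in WT RT libraries A, B and C, 119, 133 and 82.0 in WT Cold, and 164, 93.1 and 110.1 for GCN2 KO Cold. The order of the libraries was the same for all 5 genes in each group: A, B, C from high to low in WT RT, then B, A, C in WT Cold and A, C, B in GCN2 KO Cold. Flna, which is listed with the nonmuscle genes because most cells make it, followed the same orders, at 230.4, 186 and 122 CPM in WT RT libraries A, B and C, 229, 236 and 174 in WT Cold, and 276, 167 and 173 for GCN2 KO Cold.

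Within WT RT the highest library exceeded the lowest 4.76-fold for Cnn1, 4.30-fold for Myh11, 3.54-fold for Tagln, 2.55-fold for Myl9 and 2.53-fold for Acta2. A range as wide as that of Cnn1 in WT RT was seen for 0.132% of the 12888 genes with a mean of at least 50 reads, and one as wide as that of Acta2 for 2.23%. In the cold groups the ranges were less unusual: in WT Cold and then GCN2 KO Cold, 8.37% and 6.89% of genes ranged as widely as Cnn1. For Acta2 these shares were 18.9% and 8.87%. Among genes within 2-fold of the same level the shares were smaller. In WT RT, WT Cold and GCN2 KO Cold they were 0.0892%, 3.97% and 2.63% for Cnn1. For Acta2 they were 0.713%, 8.91% and 4.19%. Flna had a 1.89-fold range in WT RT. For the other nonmuscle genes the range in WT RT was 1.18-fold to 1.33-fold. The ranges of the smooth muscle genes were narrower in the cold groups, with Cnn1 at 1.92-fold in WT Cold and Myh11 at 2.36-fold, the widest of the 10, in GCN2 KO Cold. In bulk tissue, fewer cells of a type and less RNA per cell cannot be told apart.

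Relative to Acta2 the other smooth muscle genes varied less than in level, Myl9 least and Cnn1 most. Over the 9 libraries the log2 level of Myl9 had an SD of 0.56, whereas its log2 ratio to Acta2 in the same library had an SD of 0.070 and ranged 1.18-fold. For Tagln the SD of the log2 level was 0.69 and that of the log2 ratio 0.17, for Myh11 they were 0.77 and 0.24, and for Cnn1 0.84 and 0.31. The ratio to Acta2 ranged 1.45-fold for Tagln, 1.72-fold for Myh11 and 2.05-fold for Cnn1. Cnn1 and Myh11 thus moved further than Acta2 in the same direction, and fell furthest in WT RT library C. For Actb, Actg1, Myh9 and Myh10 the ratio to Acta2 varied more than the level: Actb had an SD of the log2 level of 0.18 but an SD of its log2 ratio to Acta2 of 0.58. Flna lay between, with an SD of 0.36 for its log2 level and of 0.27 for its log2 ratio to Acta2. These are descriptions over libraries of 3 groups, which share a scaling.

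**Figure D2:**
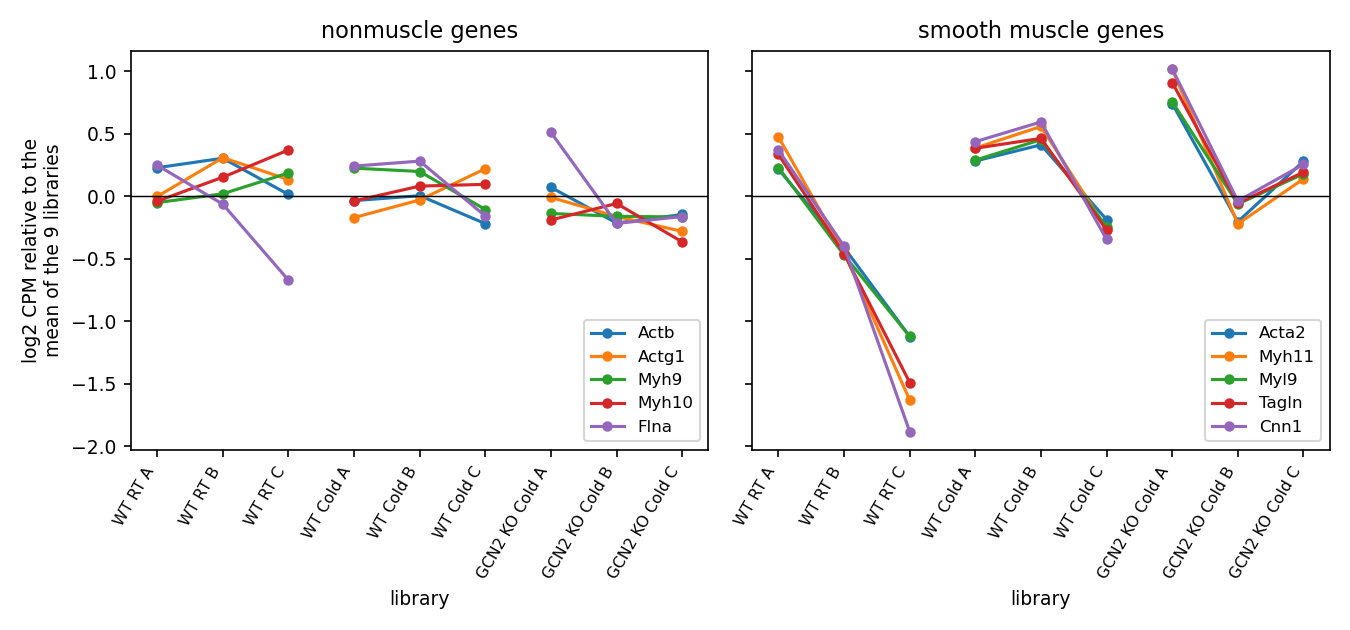
Level of each gene in each library as log2 CPM relative to its mean over the 9 libraries, nonmuscle genes on the left and smooth muscle genes on the right; lines only join the 3 libraries of a group. The 5 smooth muscle curves share their order in each group and are lowest in WT RT library C, where Cnn1 and Myh11 lie furthest below their means. Flna is the one nonmuscle gene that follows them.

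The count of other genes with these library orders was made after the orders had been seen. Among the 12888 genes, 12.4% had the order of the smooth muscle genes in WT RT, 20.6% in WT Cold, 12.8% in GCN2 KO Cold and 1.23%, or 159 genes, in all 3 groups. Of 19 other smooth muscle contractile genes, 7 had it in all 3 groups: Actg2, the second smooth muscle actin, Mylk, the myosin light chain kinase, Smtn, Lmod1, Cald1, Csrp1 and Pde5a. Actg2 stood at 195, 117 and 33.6 CPM in WT RT libraries A, B and C, 203, 234 and 120.2 in WT Cold, and 308, 126 and 187 for GCN2 KO Cold. Of 12 contractile genes that striated muscle also expresses, 4 did, including desmin (Des). Among 24 other nonmuscle actomyosin genes the 1 was Myl6, the essential light chain, and among 41 genes of actin filament turnover it was Dstn, destrin. Of 31 regulators of the light chain and of transcription, Mylk was the one.

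Markers of smooth muscle and of other cells were counted in the same way. Of 9 smooth muscle markers outside the 10 genes, 7 of which are also on the contractile list, 4 followed in all 3 groups, and their summed level was 145 to 424 CPM in WT RT, 311 to 538 in WT Cold, and 365 to 669 for GCN2 KO Cold. None of the 9 pericyte, 10 endothelial, 10 fibroblast, 11 leukocyte, 15 skeletal muscle, 12 brown adipocyte, 5 red blood cell and 5 Schwann cell markers followed in all 3, beside 1.23% of all genes, so nothing is read from these counts. Within single groups some did: 4 of 5 red blood cell markers had the WT Cold order and 6 of 15 skeletal muscle markers the WT RT order. Pericyte markers, among them Pdgfrb and Rgs5 of the cells that wrap capillaries, had a summed level of 474 to 557 CPM in WT RT, 448 to 477 in WT Cold, and 394 to 423 for GCN2 KO Cold. Rgs5 alone, at 232 to 324 CPM, made up most of that sum. Of the 9 pericyte markers 1 rose and 3 fell in WT Cold vs WT RT, beside 13.6% and 14.1% of all genes. Their median log2 fold change was -0.014, and 4 of the 9 had a positive value. Cspg4 was lower, at 35.8 to 46.6 CPM in WT RT and 17.0 to 23.1 CPM in WT Cold. The 5 smooth muscle genes had a summed level of 249 to 830.4 CPM in WT RT, 553 to 927 in WT Cold, and 591 to 1219 for GCN2 KO Cold. Endothelial markers summed to 653 to 766 CPM in WT RT, 821 to 943 in WT Cold, and 724 to 892 for GCN2 KO Cold. Leukocyte markers summed to 324 to 503 CPM in WT RT, 150.3 to 207 in WT Cold, and 118 to 191 for GCN2 KO Cold, and skeletal muscle markers to 2748 to 3125 CPM in WT RT, 2703 to 4279 in WT Cold, and 396 to 1583 for GCN2 KO Cold. No listed marker was at 0 in any library. The sum of the other smooth muscle markers was carried mostly by Actg2 and Mylk, and Itga8, at low level, was highest in library C of both cold groups. The part of smooth muscle content in the spread was not tested.

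**Figure D3:**
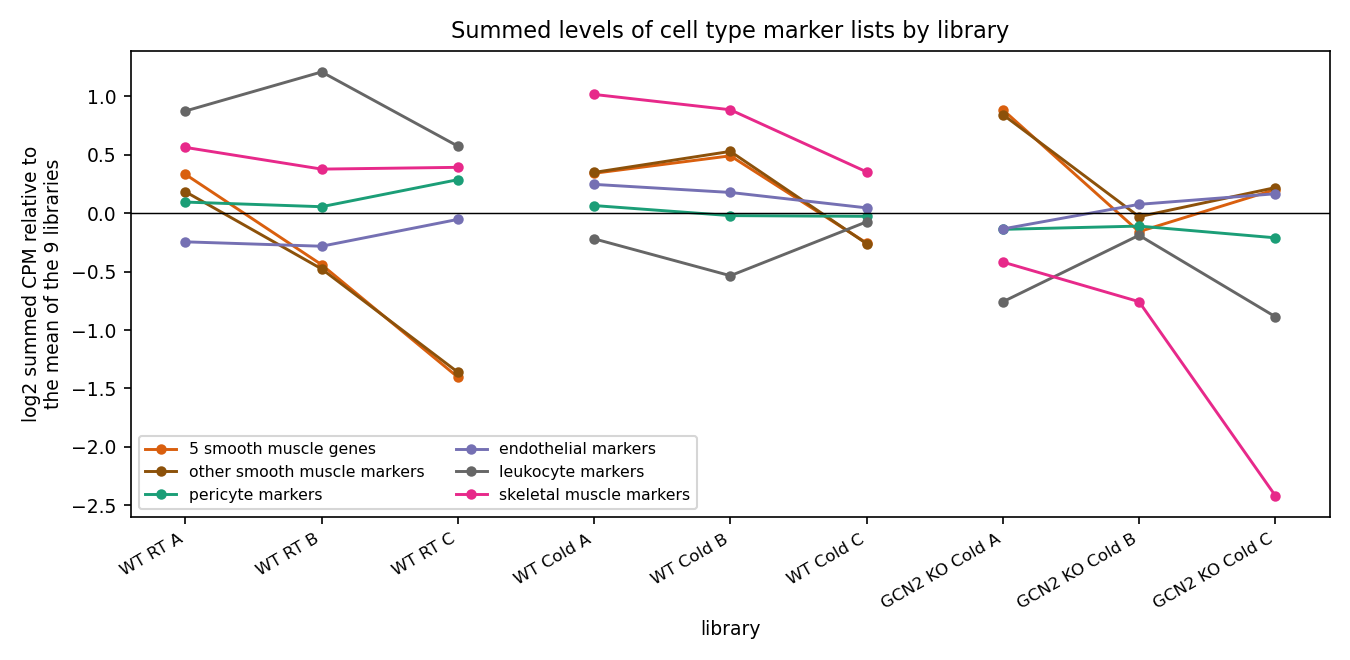
Summed CPM of each marker list in each library, as log2 relative to its mean over the 9 libraries; lines only join the libraries of a group. The sum of the other smooth muscle markers, mostly Actg2 and Mylk, runs near that of the 5 smooth muscle genes, whereas pericyte and endothelial markers stay nearer their mean in sum and skeletal muscle markers are lowest in GCN2 KO Cold.

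The promoters of these genes are shown for the CArG box, the element named above, written here as CC, 6 bases that are each A or T, and GG. Promoters from RefSeq (GRCm38.p6) were at hand for 7 of the 10 genes, not for Actb, Tagln and Myh11. In the 250 bases before the start, searched on both strands, 1.47% of 32851 promoters hold a CArG box, and 8.59% hold one or a match in which 1 of the 6 middle bases is G or C. Capitals mark these matches in the 3 promoters of the 7 that hold any, each printed 5′ to 3′ on the strand of its gene.
Acta2 (chr19:34255374-34255623, minus strand): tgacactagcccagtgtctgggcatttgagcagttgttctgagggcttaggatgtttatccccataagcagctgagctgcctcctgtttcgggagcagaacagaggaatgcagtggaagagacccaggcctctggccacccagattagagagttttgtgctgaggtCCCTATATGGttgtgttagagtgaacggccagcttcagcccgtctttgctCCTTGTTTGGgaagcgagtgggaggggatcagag
Myl9 (chr2:156775214-156775463, plus strand): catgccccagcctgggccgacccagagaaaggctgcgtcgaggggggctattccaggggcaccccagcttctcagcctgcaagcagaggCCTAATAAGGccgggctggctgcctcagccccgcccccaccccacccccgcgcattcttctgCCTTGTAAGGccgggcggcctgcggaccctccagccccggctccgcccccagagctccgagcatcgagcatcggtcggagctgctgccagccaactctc
Actg1 (chr11:120348496-120348745, minus strand): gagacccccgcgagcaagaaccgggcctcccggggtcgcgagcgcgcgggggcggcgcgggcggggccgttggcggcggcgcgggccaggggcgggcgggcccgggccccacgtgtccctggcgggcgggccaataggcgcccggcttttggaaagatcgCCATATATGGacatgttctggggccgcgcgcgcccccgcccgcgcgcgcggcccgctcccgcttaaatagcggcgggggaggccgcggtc
Myl9 holds a CArG box that begins 161 bases before the start and a match with 1 other base at 99. Actg1, a nonmuscle gene, holds a CArG box at 90. Acta2 holds matches with 1 other base at 84 and 34. None was found in these windows of Cnn1, Flna, Myh9 and Myh10. A match is a description of these windows only, and whether any is bound was not tested. GGGCGG, searched on both strands, lies in 32.7% of promoters and in those of Myl9, Actg1, Myh9 and Flna, and TATAAA lies in 12.4% and in that of Myh9.

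WT Cold was compared with WT RT to ask what acute cold does to these genes in normal brown fat. The smooth muscle genes had higher means in the cold and the cytoplasmic actins lower ones, and none of the 10 passed the test (limma on log2 of the normalised read count + 1, adjusted p under 0.05), beside 27.7% of the 16679 genes tested (13.6% higher and 14.1% lower). With a log2 fold change over 1 in size as well, 8.14% of all genes passed, 2.99% higher and 5.15% lower. Of the 10 genes 1, Actb, had an unadjusted p under 0.05, beside 6819 of the 16679. DESeq2 and edgeR also called none. Normalised counts of the groups overlapped for all 10 genes, whereas 45.5% of all genes did not overlap. Cnn1 had a log2 fold change of 0.89 (SE 0.52, 95% interval -0.32 to 2.10, adjusted p = 0.243), and Acta2 a log2 fold change of 0.63 (SE 0.31, 95% interval -0.097 to 1.36, adjusted p = 0.173). Myh11 stood at 0.79 (SE 0.48, adjusted p = 0.257), Tagln at 0.75 (SE 0.42, adjusted p = 0.221) and Myl9 at 0.64 (SE 0.33, adjusted p = 0.18). The intervals of these 5 include 0 and reach past 1 on the log2 scale, so neither no difference nor a difference of that size is excluded. Their median log2 fold change was 0.75, beside 0.0032 over all genes. Markers of other cells moved in this comparison too, with 7 of 11 leukocyte and 5 of 10 fibroblast markers lower and 5 of 5 red blood cell markers higher. Leaving out WT Cold library A or B or WT RT library B or C left 2 or 3 fibroblast markers called, and leaving out any WT RT library left 0 red blood cell markers. Fibroblast markers summed to 1244 to 1374 CPM in WT RT, 950.2 to 1039 in WT Cold, and 734 to 893 for GCN2 KO Cold, and their part in the values of the actomyosin genes was not tested.

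The values moved with single WT RT libraries. Library A was the highest of them for all 5 smooth muscle genes. Without it Acta2 (0.96, adjusted p = 0.0428) and Myl9 (0.99, adjusted p = 0.043) passed the test, 2 of the 10 beside 18.9% of all genes in that fit. Cnn1 (1.39, adjusted p = 0.079), Myh11 (1.29, adjusted p = 0.0575) and Tagln (1.19, adjusted p = 0.055) did not pass. Without WT RT library C, the lowest, Cnn1 stood at 0.26, adjusted p = 0.612 and Acta2 at 0.28, adjusted p = 0.433. Among the nonmuscle genes Actb had a log2 fold change of -0.24 (SE 0.10, 95% interval -0.48 to -0.0029, adjusted p = 0.119), from 742, 782 and 639 CPM in WT RT libraries A, B and C, 618, 635 and 544 in WT Cold, and 665, 546 and 572 for GCN2 KO Cold. WT RT library C and WT Cold library B were nearly level for Actb, and they overlapped in normalised counts, though not in CPM. Actg1 stood at -0.12 (SE 0.12, adjusted p = 0.498), Myh9 at 0.077 (SE 0.11, adjusted p = 0.627), Myh10 at -0.092 (SE 0.11, adjusted p = 0.579) and Flna at 0.31 (SE 0.23, adjusted p = 0.353).

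GCN2 KO Cold was compared with WT Cold to ask whether loss of GCN2 alters the tissue in the cold. None of the 10 genes passed the test, beside 0.405% of the 16312 genes tested (0.178% higher and 0.227% lower), nor did any with DESeq2 or edgeR, and 0.257% of all genes (0.0613% higher and 0.196% lower) also had a log2 fold change over 1 in size. The 2 of the 10 with an unadjusted p under 0.05 were the nonmuscle myosin heavy chains, beside 2500 of the 16312 genes at that threshold. Myh9 stood at 146, 154 and 173 CPM in WT RT libraries A, B and C, 177, 174 and 141 in WT Cold, and 138, 136 and 135 for GCN2 KO Cold. All 3 GCN2 KO Cold libraries were below all WT Cold libraries, with a log2 fold change of -0.27 (SE 0.10, 95% interval -0.50 to -0.033, adjusted p = 0.269). Myh10 stood at 27.3, 31.1 and 36.2 CPM in WT RT libraries A, B and C, 27.3, 29.6 and 29.9 in WT Cold, and 24.6, 26.9 and 21.8 for GCN2 KO Cold. It too was lower in all 3 GCN2 KO Cold libraries than in any WT Cold library, with a log2 fold change of -0.26 (SE 0.10, 95% interval -0.50 to -0.012, adjusted p = 0.305). Groups thus did not overlap for 2 of the 10 genes, both lower, beside 22.0% of all genes, 11.3% higher and 10.7% lower, so the share among the 10 is near that of genes at large.

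The smooth muscle genes differed little in mean between the 2 cold groups, with log2 fold changes from 0.077 for Myh11 (-0.70 to 0.86, adjusted p = 0.938) to 0.18 for Cnn1 (-0.58 to 0.93, adjusted p = 0.846). Those signs rest on GCN2 KO Cold library A and WT Cold library C: without the first Myh11 stood at -0.28, adjusted p = 0.66, and without the second Acta2 stood at -0.083, adjusted p = 0.896. Actb stood at -0.020 (SE 0.11, adjusted p = 0.949), Actg1 at -0.16 (SE 0.12, adjusted p = 0.57) and Flna at -0.085 (SE 0.21, adjusted p = 0.889). Actg1 itself stood at 194, 240.1 and 213 CPM in WT RT libraries A, B and C, 172, 190.0 and 226 in WT Cold, and 193, 173 and 159.6 for GCN2 KO Cold. In normalised counts its groups overlapped in all 3 comparisons. In CPM, GCN2 KO Cold and WT RT did not overlap, though library A of each was nearly level (192.7 and 193.7). Skeletal muscle markers moved with this comparison: all 15 had every GCN2 KO Cold library below every WT Cold library (median log2 fold change -2.01, 1 of 15 past the test), and their part in the values of the actomyosin genes was not tested.

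GCN2 KO Cold was also compared with WT RT, a contrast of genotype and temperature at once that shares the WT RT libraries with the cold response of WT mice. Values of both are given side by side only. None of the 10 genes passed with limma or DESeq2 and 1 did with edgeR, beside 34.2% of the 16560 genes tested with limma (16.4% higher and 17.8% lower). At an unadjusted p under 0.05 there were 5, Actb, Actg1, Myh9, Myh10 and Myl9, beside 7360 of the 16560. With a log2 fold change over 1 in size as well, 10.6% of all genes passed, 3.01% higher and 7.58% lower. Normalised counts of the groups did not overlap for 2 of the 10, Myh9 and Myh10, both lower, beside 49.2% of all genes, 23.7% higher and 25.5% lower. Myh10 had a log2 fold change of -0.35 (SE 0.13, 95% interval -0.64 to -0.054, adjusted p = 0.0679), where WT Cold vs WT RT gave -0.092. Actg1 had a log2 fold change of -0.28 (SE 0.11, 95% interval -0.52 to -0.039, adjusted p = 0.0724), Actb -0.26 (SE 0.11, adjusted p = 0.108) and Myh9 -0.19 (SE 0.078, adjusted p = 0.0976). Of the smooth muscle genes, Cnn1 had a log2 fold change of 1.07 (SE 0.52, 95% interval -0.11 to 2.25, adjusted p = 0.146) and Myl9 a log2 fold change of 0.76 (SE 0.33, 95% interval 0.011 to 1.51, adjusted p = 0.109). Tagln stood at 0.90 (SE 0.43, adjusted p = 0.137), Myh11 at 0.86 (SE 0.50, adjusted p = 0.217), Acta2 at 0.73 (SE 0.34, adjusted p = 0.131) and Flna at 0.22 (SE 0.26, adjusted p = 0.536). Markers of other cells moved in this comparison, with 8 of 11 leukocyte, 6 of 10 fibroblast and 13 of 15 skeletal muscle markers lower, a count of 5 for the last without WT RT library A and 8 without WT RT library B or C. Of red blood cell markers 5 of 5 and of brown adipocyte markers 8 of 12 were higher. Their part in the values of the actomyosin genes was not tested.

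Again a few choices moved the calls. Without WT RT library A, 5 of the 10 passed, beside 25.5% of all genes: Cnn1 (1.57, adjusted p = 0.044), Tagln (1.34, adjusted p = 0.0349), Myl9 (1.11, adjusted p = 0.0262), Acta2 (1.06, adjusted p = 0.0407) and Myh10 (-0.44, adjusted p = 0.0455). Without GCN2 KO Cold library A, Actg1 passed (-0.35, adjusted p = 0.0415). Myh10 passed with edgeR, at -0.37 (adjusted p = 0.0469), and with all 3 groups in the fit, at -0.36 (adjusted p = 0.0396). Scaling by library totals lowered the median of all genes by 0.19 in this comparison, by 0.12 between the cold groups and by 0.08 between the WT groups. On that scale 4 nonmuscle genes passed, with Myh10 at -0.55 (adjusted p = 0.00793) before that shift is taken off.

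**Figure D4:**
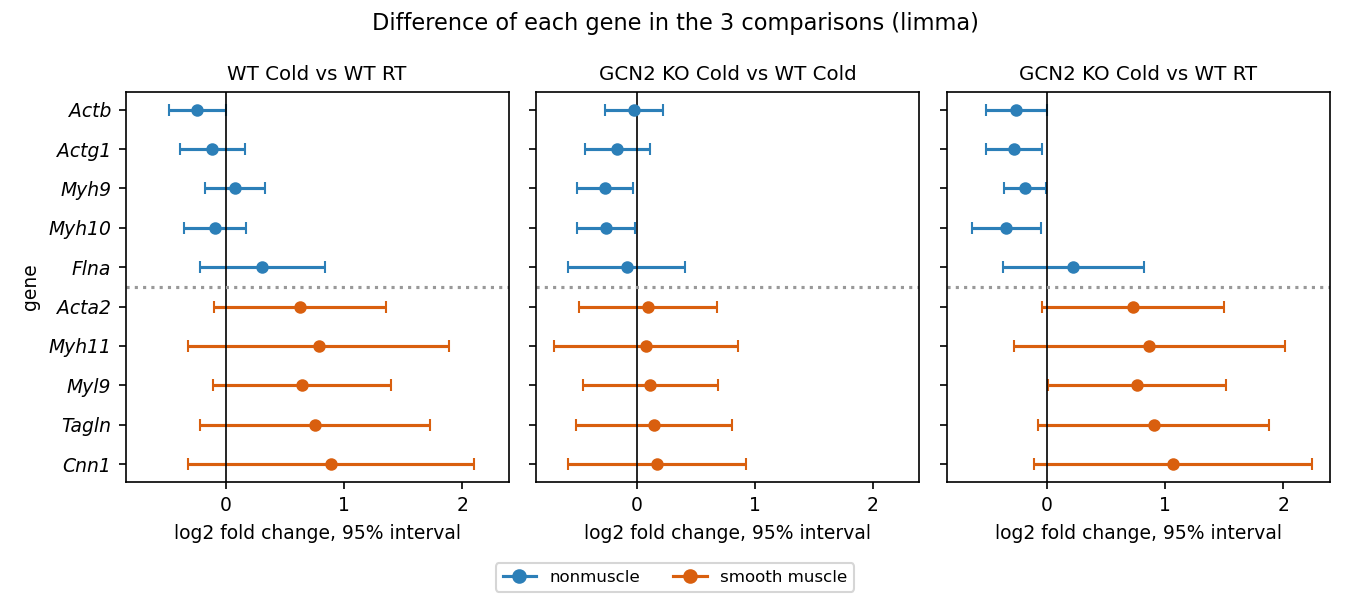
Log2 fold change of each gene with its 95% interval (limma, 3 libraries per group) in the 3 comparisons, nonmuscle genes in blue and smooth muscle genes in orange. The smooth muscle genes sit at 0.63 to 0.89 in WT Cold vs WT RT with wide intervals that all include 0, and near 0 between the cold groups.

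A ratio of 2 genes within a library does not depend on its scaling, so 4 ratios were compared between groups, 12 comparisons by a two-sided exact permutation test for which 3 against 3 libraries cannot go below p = 0.1. The log2 ratio of Acta2 to Actb was -1.69, -2.40 and -2.82 in WT RT libraries A, B and C, -1.36, -1.28 and -1.65 in WT Cold, and -1.01, -1.67 and -1.26 for GCN2 KO Cold. It was higher in every cold library than in any WT RT library, by 0.87 on average in WT Cold and by 0.99 in GCN2 KO Cold (exact permutation p = 0.1 each, 0.6 after Benjamini-Hochberg adjustment). WT RT library A came close to the lowest cold libraries. Actb was also the gene to which the RT-qPCR of the study was normalised. The log2 ratio of Myh11 to Myh9 was 1.05, 0.056 and -1.29 in WT RT libraries A, B and C, 0.69, 0.89 and 0.37 in WT Cold, and 1.68, 0.47 and 0.83 for GCN2 KO Cold, and its groups overlapped in all 3 comparisons (exact permutation p = 0.5, 0.5 and 0.3). Myh10 to Myh9 differed by -0.17, 0.010 and -0.16 in the 3 comparisons, taken in the order above. Actg1 to Actb differed by 0.13, -0.14 and -0.019. None of these had an exact permutation p under 0.2.

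Of 24 other nonmuscle actomyosin genes, 3 rose and 3 fell in WT Cold vs WT RT (median log2 fold change 0.12), beside 13.6% and 14.1% of all genes. The largest were the septin Sept9 at -1.06 (adjusted p = 0.00254), the membrane linker Ezr at 0.83 (adjusted p = 0.0303), calponin 3 (Cnn3) at 0.71 (adjusted p = 0.00078) and the intermediate filament gene Vim at -0.61 (adjusted p = 0.00247). Ezr lost its call without WT Cold library A (0.85, adjusted p = 0.0695), WT Cold library B (0.78, adjusted p = 0.0952) or WT RT library A (0.91, adjusted p = 0.057). The count of the list was 3 without WT Cold library B or WT RT library A and 10 without WT Cold library C. Counts of all genes moved likewise in WT Cold vs WT RT, to 34% without WT Cold library C and to 17.4% to 19.6% without any other library. With 1 library left out they were 25.5% to 31.8% in GCN2 KO Cold vs WT RT. In GCN2 KO Cold vs WT RT, 4 rose and 4 fell, with Sept9 at -0.97 (adjusted p = 0.0022), the tropomyosin Tpm3 at -0.74 (adjusted p = 0.00246), Cnn3 at 0.58 (adjusted p = 0.00186) and vinculin (Vcl) at -0.49 (adjusted p = 0.0327), beside 16.4% and 17.8%. Without WT RT library B, 5 passed. Vcl lost its call without GCN2 KO Cold library B or C or WT RT library B or C (log2 fold changes of -0.53 to -0.35, adjusted p = 0.0525 to 0.107). Between the cold groups 1 of the 24 passed, Tpm3, which fell by 0.91 on the log2 scale (adjusted p = 0.0461), beside 0.227% of all genes lower. Striated muscle also makes Tpm3, and its call was lost without any library but WT Cold library C, with log2 fold changes of -1.0 to -0.81, adjusted p = 0.0858 to 0.237 in those 5 fits.

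Of the 19 other smooth muscle contractile genes 1 rose and 2 fell in WT Cold vs WT RT (median log2 fold change 0.38), beside 13.6% and 14.1% of all genes: Sorbs3, vinexin, at 0.64 (adjusted p = 0.00731), the surface amine oxidase Aoc3 at -1.93 (adjusted p = 0.000155) and Mcam, an adhesion molecule that is also a pericyte marker, at -0.73 (adjusted p = 0.00704). Adipocytes also make Aoc3. Without WT Cold library C, 8 of the 19 passed, beside 34% of all genes. In GCN2 KO Cold vs WT RT 2 rose and 3 fell, beside 16.4% and 17.8%. Aoc3 stood at -1.86 (adjusted p = 0.0012), the cGMP-dependent kinase Prkg1 at -1.52 (adjusted p = 0.00182), Mylk at 1.04 (adjusted p = 0.0278) and Mcam at -0.95 (adjusted p = 0.000564). Mylk stood at 153, 92.1 and 65.1 CPM in WT RT libraries A, B and C, 184, 213 and 129.6 in WT Cold, and 263, 169.9 and 171 for GCN2 KO Cold. Its call was lost without GCN2 KO Cold library A (0.83, adjusted p = 0.0696), WT RT library B (1.0, adjusted p = 0.0767) or WT RT library C (0.74, adjusted p = 0.0751), and with DESeq2 (0.98, adjusted p = 0.0618). In WT Cold vs WT RT Mylk stood at 0.85 (adjusted p = 0.0752) and passed without WT Cold library C (1.05, adjusted p = 0.0289) or WT RT library A (1.18, adjusted p = 0.0202). None of the 19 passed between the cold groups by limma, DESeq2 or edgeR, and 1 had an unadjusted p under 0.05, beside 2500 of the 16312 genes.

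The 12 contractile genes that striated muscle also expresses are read beside the skeletal muscle markers. In WT Cold vs WT RT 1 of the 12 rose, beside 13.6% of all genes, the striated muscle filamin Flnc, at 1.46 (adjusted p = 0.00113). Of the 12, 7 passed without WT Cold library C, beside 34% of all genes, and 3 without WT RT library A, beside 18.9%. Of the 12, 3 fell in GCN2 KO Cold vs WT RT, beside 17.8% of all genes: Ldb3 at -1.54 (adjusted p = 0.0137), Hspb6 at -1.26 (adjusted p = 0.00152) and Nexn at -0.64 (adjusted p = 0.0349). Nexn lost its call without GCN2 KO Cold library B (-0.65, adjusted p = 0.0713), GCN2 KO Cold library C (-0.45, adjusted p = 0.0821), WT RT library A (-0.53, adjusted p = 0.118) or WT RT library B (-0.65, adjusted p = 0.0788). Without GCN2 KO Cold library A, 5 of the 12 passed. In GCN2 KO Cold vs WT Cold Hspb6 alone fell with limma, at -1.55 (adjusted p = 0.0451), a call that leaving out any 1 of the 6 libraries ended (log2 fold changes of -1.69 to -1.31, adjusted p = 0.0564 to 0.235). Of the 15 skeletal muscle markers 13 fell in GCN2 KO Cold vs WT RT, as given above. In WT Cold vs WT RT 3 of them rose, and 11 without WT Cold library C. The part of skeletal muscle fibres in the values of this list was not tested.

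Among 31 regulators of the light chain and of actomyosin transcription, 7 rose and 2 fell in WT Cold vs WT RT (median log2 fold change 0.30), beside 13.6% and 14.1% of all genes. The largest were Ctgf at 1.29 (adjusted p = 0.000491) and Cyr61 at 1.0 (adjusted p = 0.0104), secreted matricellular proteins that are targets of YAP and of serum response factor signalling, S100a4, a myosin-binding protein, at -1.15 (adjusted p = 0.0237), and Arhgef12, a guanine nucleotide exchange factor, at 0.84 (adjusted p = 0.00235). S100a4 lost its call without WT Cold library A (-0.99, adjusted p = 0.074), WT Cold library B (-1.06, adjusted p = 0.081), WT RT library A (-1.22, adjusted p = 0.0565) or WT RT library B (-0.87, adjusted p = 0.0637). It is also made by leukocytes, whose markers fell, 7 of 11 in this comparison. The part of leukocytes in the value of S100a4 was not tested. The count of 9 was 3 to 5 without WT Cold library A or B or WT RT library B or C, and 16 without WT Cold library C, in fits whose shares over all genes are given above. Of the 31, 9 rose and 2 fell in GCN2 KO Cold vs WT RT, beside 16.4% and 17.8% of all genes, with S100a4 at -1.24 (adjusted p = 0.0121), Ctgf at 1.16 (adjusted p = 0.00135), Mylk as above and Ppp1r14b, an inhibitor of the phosphatase that acts on myosin, at 0.61 (adjusted p = 0.00182). That count of 11 was 6 or 7 without GCN2 KO Cold library A or C or any WT RT library. Between the cold groups limma and edgeR called none and DESeq2 called 1, beside 3.29% of the genes it tested. At an unadjusted p under 0.05 there were 5 of the 31, beside 2500 of the 16312 genes.

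Srf, the serum response factor, stood at 27.0, 24.1 and 25.6 CPM in WT RT libraries A, B and C, 34.2, 36.7 and 31.0 in WT Cold, and 31.8, 29.5 and 32.0 for GCN2 KO Cold. It rose in WT Cold vs WT RT, at 0.43 (adjusted p = 0.0146), and all 3 WT Cold libraries were above all WT RT libraries. The call was lost without WT Cold library B (0.38, adjusted p = 0.0591) or WT RT library B (0.39, adjusted p = 0.0531). In GCN2 KO Cold vs WT RT it stood at 0.30 (adjusted p = 0.0308), and lost its call without GCN2 KO Cold library A (0.28, adjusted p = 0.0803) or C (0.28, adjusted p = 0.0706) and without WT RT library B (0.26, adjusted p = 0.101) or C (0.30, adjusted p = 0.0792). With scaling by library totals Srf stood at 0.099 (adjusted p = 0.428). That scaling lowered the median of all genes by 0.19 in this comparison, and the shift is not taken off here. Its coactivators did not pass: Mrtfa, listed as Mkl1, stood at 0.31 (adjusted p = 0.103) in WT Cold vs WT RT and 0.13 (adjusted p = 0.515) in GCN2 KO Cold vs WT RT, Mrtfb, listed as Mkl2, at -0.084 (adjusted p = 0.624) and -0.26 (adjusted p = 0.134). Myocd, the coactivator of smooth muscle, was near the lower limit of detection at 0.0351 to 0.690 CPM. Rhoa stood at 0.020 (adjusted p = 0.854) and 0.12 (adjusted p = 0.196), and Rock2 at 0.11 (adjusted p = 0.453) and -0.11 (adjusted p = 0.361). Rock1 stood at 0.42 (adjusted p = 0.039) in WT Cold vs WT RT, a call lost without any library but WT Cold library C (log2 fold changes of 0.34 to 0.43, adjusted p = 0.0854 to 0.129), and at 0.23 (adjusted p = 0.0438) in GCN2 KO Cold vs WT RT, a call lost without any 1 of the 6 libraries (log2 fold changes of 0.20 to 0.24, adjusted p = 0.0734 to 0.125) and with DESeq2 and edgeR. In GCN2 KO Cold vs WT Cold Srf stood at -0.13 (adjusted p = 0.578) and Rock1 at -0.19 (adjusted p = 0.531).

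Of 41 genes of actin filament turnover, 7 rose and 6 fell in WT Cold vs WT RT (median log2 fold change -0.021), beside 13.6% and 14.1% of all genes. The filament-capping gene Capg stood at -1.10 (adjusted p = 0.0143), the filament elongator Enah at 0.82 (adjusted p = 0.00617), the actin-sequestering thymosin Tmsb10 at -0.66 (adjusted p = 0.0063) and the formin Diaph1 at 0.58 (adjusted p = 0.00466). The count of 13 fell to 4 or 5 without WT Cold library A or B or WT RT library A or B and to 7 without WT RT library C. Of the 41, 4 rose and 8 fell in GCN2 KO Cold vs WT RT, beside 16.4% and 17.8% of all genes, with Capg at -1.63 (adjusted p = 0.00108), Arpc5l, a subunit of the Arp2/3 complex, at 0.72 (adjusted p = 0.00149), Tmsb10 at -0.69 (adjusted p = 0.00406) and Arpc1b, of the same complex, at -0.57 (adjusted p = 0.00853). None of the 41 passed between the cold groups by limma or edgeR, and 2 did with DESeq2, which called 3.29% of the genes it tested. At an unadjusted p under 0.05 there were 9 of the 41, beside 2500 of the 16312 genes. Capg and Arpc1b are made strongly by leukocytes, whose markers fell in the same comparisons (8 of 11 in GCN2 KO Cold vs WT RT), and the part of leukocytes in these values was not tested.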

How the data were processed

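The authors trimmed paired-end reads with Trimmomatic 0.36, aligned them with STAR 2.5.2b, counted reads in exons with featureCounts (Subread 1.5.2) and compared groups with DESeq2; the submitters' notes name the build GRCm39, and whether counting used strand is not given in the sources used here. The deposited signal in each of 3 tables is a read count divided by a size factor of that table, and the log2 fold changes, p-values and adjusted p-values that the authors deposited beside it, from their DESeq2 comparisons, were not used. Whole reads were recovered for 100% of values (within 0.001 reads). The columns carry library codes, tied to groups by the tables in which they occur; columns of other samples numbered 0. The title of 1 sample names both genotypes, and its genotype label was used. At most 17 rows without a gene symbol were tested without a name.

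Normalised counts were tested within a table with limma 3.58.1 (R 4.3.3, mean-variance trend, pseudocount 1, Benjamini-Hochberg over all genes of the table, two-sided). The fit was first tested on simulated data, with the same variability between libraries set for all genes. That check does not cover the wider spread of the smooth muscle genes. Levels are CPM from recovered reads with TMM factors (edgeR 4.0.16), per kilobase by GENCODE M21 exon length. edgeR and DESeq2 1.42.0 on recovered reads, other pseudocounts (0.5, 8), a mean of at least 50, other scalings and each library left out were alternatives. The members and lists were chosen with earlier results of these data known. Named from each list were up to 4 genes with the largest change among those at an adjusted p under 0.05, and set regulators. Older symbols stand for 7 listed genes.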

Additional observations from a re-analysis of the deposited data

How the results depend on the processing

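Over 10 alternatives other than leaving out a library, 291 of 300 log2 fold changes of the 10 genes kept their direction and stayed on their side of the threshold, 6 passed newly and 3 turned. The count passing in GCN2 KO Cold vs WT RT went from 0 to 1 with edgeR, to 1 with all 3 groups in the fit and to 4 with scaling by library totals. With that scaling Myh9 turned to -0.0074 in WT Cold vs WT RT, and Myh11 to -0.040 and Acta2 to -0.020 in GCN2 KO Cold vs WT Cold; Rhoa turned to -0.065, -0.020 and -0.084 in the 3 comparisons, and in GCN2 KO Cold vs WT RT Mkl1 turned to -0.070 and Eif2ak4 to -0.011. With all 3 groups in the fit Rhoa stood at -0.0034 in WT Cold vs WT RT. Leaving out 1 library, 153 of 180 values kept both, 8 passed newly and 19 turned; the count passing ran from 0 to 2 in WT Cold vs WT RT and from 0 to 5 in GCN2 KO Cold vs WT RT, where 0 to 4 also had an absolute log2 fold change over 1. Values that turned ranged over -0.19 to 0.0086 for Myh10 and -0.011 to 0.059 for Rhoa in WT Cold vs WT RT and over -0.035 to 0.43 for Flna in GCN2 KO Cold vs WT RT. In GCN2 KO Cold vs WT Cold they ranged over -0.14 to 0.34 for Acta2, -0.28 to 0.35 for Myh11, -0.12 to 0.30 for Myl9, -0.14 to 0.36 for Tagln, -0.13 to 0.41 for Cnn1, -0.32 to 0.050 for Flna, -0.11 to 0.043 for Actb and -0.024 to 0.34 for Mylk. The genes called in GCN2 KO Cold vs WT Cold numbered 66 by limma, 6 without a trend, 526 by DESeq2, 44 by edgeR, 334 with all 3 groups in the fit and 5 by Bonferroni, which gave 129 and 202 in the comparisons with WT RT; the cause was not tested. Scaling by library totals turned the split of higher against lower calls from 2268 and 2356 to 1570 and 2905 in WT Cold vs WT RT, from 29 and 37 to 11 and 52 between the cold groups and from 2713 and 2944 to 1486 and 4820 in GCN2 KO Cold vs WT RT. Calls of the lists that rested on single libraries are given with their values beside the counts. No paired analysis was possible because the table columns carry library codes and no replicate numbers. Each of the 10 genes had at least 544 reads in every library.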
